A study of Mus musculus with 9 samples.

Results

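The 3 libraries that carry replicate number 1 in their titles were compared with the 3 that carry number 2, which makes 6 of the 9 libraries of the series. The replicate number, read from the library titles, was the only rule for which libraries fell in each set. The comparison itself and the gene lists were chosen with earlier results of these data known. Each set of 3 held 1 library of every genotype and is called series 1 or series 2, and the libraries numbered 3 are called series 3. The study profiled mouse embryonic stem cells differentiated in vitro into caudal epiblast-like cells (CEpiLCs), which model the posterior progenitors of the embryo. Cells kept in serum and LIF were moved to N2/B27 medium with bFGF at 10 ng/ml and the WNT secretion inhibitor LGK974 at 5 uM. The GSK3 inhibitor CHIR99021, which activates WNT signalling, was added on day 2, and the cells were collected at 72h. The genotypes were wild-type (WT), Cdx1/2/4-/- (CdxKO), which lacks the 3 caudal-type homeobox factors, and T/Bra-/- (T/BraKO), which lacks Brachyury. All the libraries shared the same medium, treatment and nominal time. Per the study's methods the lines came from the HM1 TetON line, and a second line of a genotype is not named in the labels. The comparison asked which gene programmes varied between biological replicates, as the titles call them, that were collected at one nominal time.

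The caudal epiblast is the region beside the primitive streak where WNT and FGF signals keep progenitors that feed the spinal cord and the paraxial mesoderm. As these cells leave pluripotency they shut down the naive network around Nanog and Esrrb, switch on Cdx and T, and open the Hox clusters from their anterior towards their posterior ends. Hox expression in such cultures is therefore commonly read as a clock of how far a culture has come. In bulk RNA, fewer cells of a type and less RNA per cell cannot be told apart, and this holds for every result here.

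Totals lay between 25124337 and 34705355 expected counts a library, and series 1 held the 3 smallest. Libraries with the same number deviated together from the mean of their genotype. Over 12316 genes with a mean of at least 50 normalised counts, the correlations of these deviations were 0.532 to 0.814 in the 9 same-number pairs and -0.690 to 0.134 in the 18 pairs with different numbers. Those in series 1 were 0.532 to 0.643 and those in series 2 were 0.716 to 0.814. These are correlations across genes, and in part centring makes pairs with different numbers negative. The labels do not say whether a number marks a shared day, thaw or preparation, so these cannot be told apart. RNA composition moved with the number as well. The ribosomal RNA gene Rn45s, which mostly lacks a poly(A) tail, took 1.69%, 4.21% and 3.69% of the counts in WT, CdxKO and T/BraKO of series 1. In series 2 it took 0.810%, 0.992% and 0.492%, and in series 3 the range was 0.343% to 0.699%. Replication-dependent histone genes, whose transcripts also lack the tail, took 0.0220% to 0.0265% in series 1 and 0.0165% to 0.0187% in series 2. Of 51 such genes tested, 24 were higher in series 1, with a median log2 fold change of 1.14, and the count was 8 to 14 without CdxKO replicate 1 or 2, T/BraKO replicate 1 or 2 or WT replicate 2. Without both CdxKO and T/BraKO of series 1, the libraries with the most Rn45s, DESeq2 called 0 histone genes (1 higher at an unadjusted p under 0.05, and 0 called by edgeR). Of 80 ribosomal protein genes tested, 17 were lower and 3 higher (median -0.07), beside 13.8% and 16.6% of all genes tested. TMM factors gave 26 lower, and leaving out WT replicate 1 or CdxKO replicate 1 or 2 gave 9 or 10. Without both libraries with the most Rn45s, 1 ribosomal protein gene was called lower. The part of RNA composition in the results that follow was not tested.

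**Figure D1:**
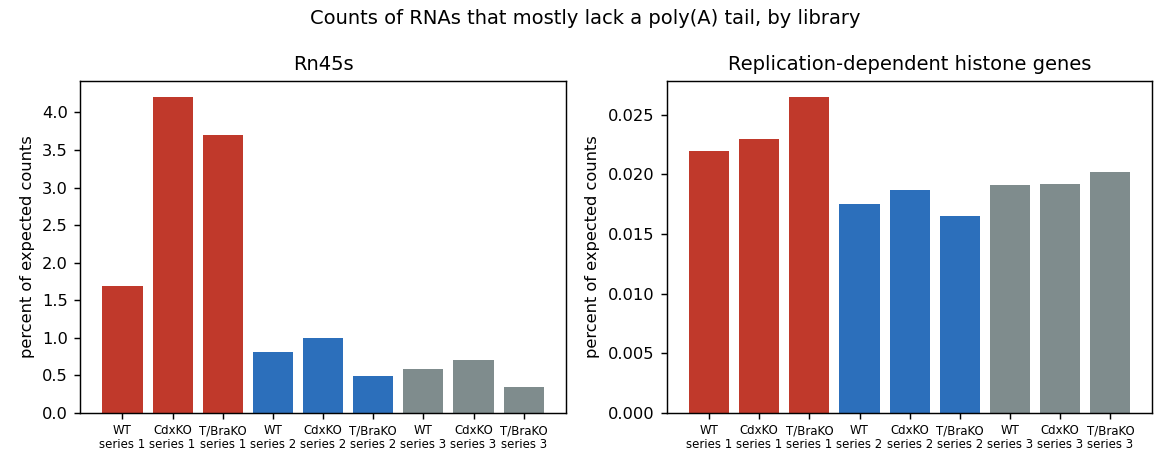
Bars give the percent of expected counts in each library taken by Rn45s (left) and by replication-dependent histone genes (right), from 0. The series 1 libraries (red) were highest on both measures, with CdxKO and T/BraKO of series 1 at 4.21% and 3.69% Rn45s.

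With genotype as a block, DESeq2 tested 14215 genes. At an adjusted p of at most 0.05, 2363 genes (16.6%) were higher in series 1 than in series 2 and 1956 (13.8%) were lower. Of these 4319 genes, 4262 differed in the same direction in all 3 genotypes. The call itself favours such agreement, so it is not a separate check, and its share over all genes tested was not taken. Most differences were small: 2957 were under 0.5 on the log2 scale and 458 were above 1. The median log2 fold change of all the genes tested was 0.01. Every series 1 library was above every series 2 library in 18.8% of the genes tested, and below in 17.9%. These shares, and the 16.6% and 13.8% called, are the background for the separations and list counts below. Each genotype gave 1 library per series, so these p-values measure how evenly the difference recurred across the genotypes with counts of the gene. The spread came from all 9 libraries, and whether the difference varied between genotypes was not tested. Libraries with the same number deviated together, so they are not independent replicates of a series. Against series 3, which shares the series 1 libraries with the first comparison, 1270 of 13855 genes (9.17%) were higher in series 1 and 1113 (8.03%) were lower. These shares are the background for the list counts against series 3 below. CdxKO and T/BraKO of series 1 had the most Rn45s. Without both, 261 genes were higher and 231 were lower, in a fit where WT replicate 1 stood alone for series 1 and was assumed to vary like the other libraries. Of these, 255 and 228 were among the calls made with all 9 libraries.

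**Figure D2:**
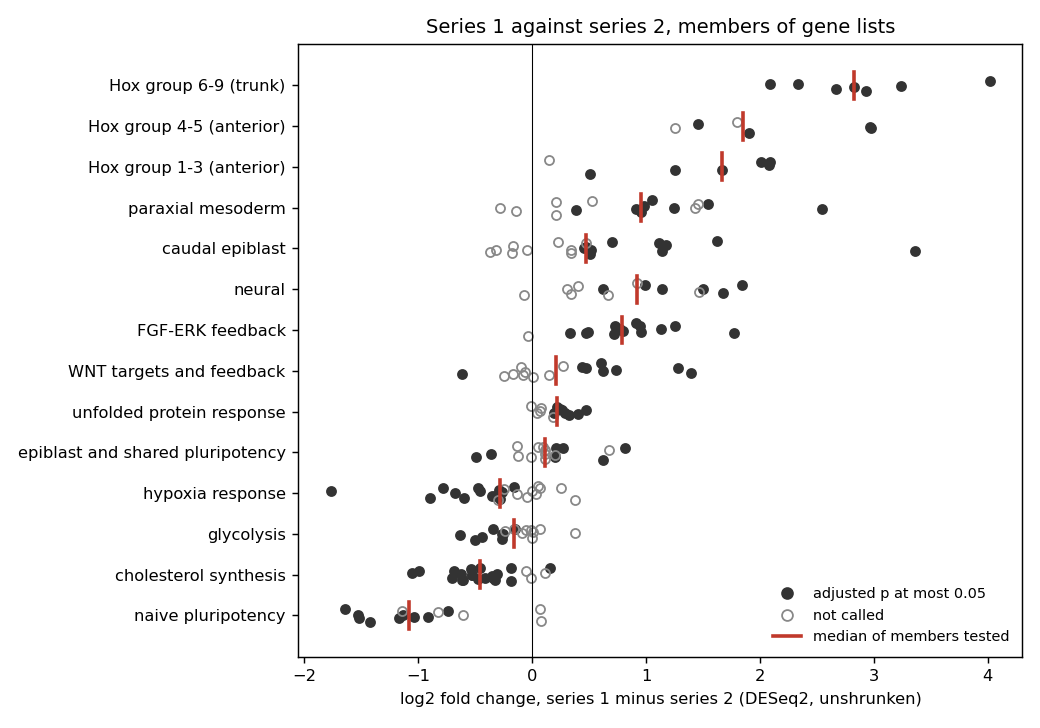
Each point is a gene, placed by its log2 fold change of series 1 minus series 2, for 14 gene lists. Filled points had an adjusted p of at most 0.05 and red bars mark list medians, which ran from 2.83 for trunk Hox genes to -1.08 for naive pluripotency genes.

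The genes that define the cell state and the genotypes differed unevenly. Values below are normalised counts in the order WT, CdxKO, T/BraKO. T, the Brachyury gene, had 10899.6, 13928 and 1777 in series 1 and 11070.1, 6285 and 2214 in series 2. It was higher in series 1 only in CdxKO, and was not called (log2 fold change 0.23, SE 0.34, adjusted p 0.664). Cdx2 had 6106, 1625 and 7541 in series 1 and 2699, 706 and 3653 in series 2. Within every genotype series 1 was higher, including the reads left in the mutant, and DESeq2 called the difference (log2 fold change 1.14, SE 0.08, adjusted p 6.16e-42). Cdx4 had 161, 1.25 and 225 against 59.97, 1.79 and 117, near the floor of 3 counts in CdxKO in both series (log2 fold change 1.11, adjusted p 0.00171). Its call was lost without WT replicate 1 or 2 or T/BraKO replicate 1 (adjusted p 0.111, 0.116 and 0.0638). Cdx1 had 444, 302 and 786 against 626, 319.7 and 1021, the other direction, and was not called (log2 fold change -0.32, adjusted p 0.0619). Among the markers of CEpiLCs, Nkx1-2 was higher in series 1 (log2 fold change 0.51, adjusted p 5.81e-14), with 7886, 7169 and 11263 against 5960.2, 4902 and 7541. Fgf8, Wnt3a and Wnt8a, the ligands of the progenitor zone, had log2 fold changes of 0.34, 0.47 and 0.34 and were not called. The SOXB1 factor Sox2 was higher in series 1, with 663, 846 and 805 against 472, 480.4 and 364 (log2 fold change 0.81, adjusted p 1.03e-06), though not without T/BraKO replicate 1 (adjusted p 0.0617). Sox3 and Pou5f1 were not called (log2 fold changes 0.40 and -0.13). Reads of T, Nkx1-2, Cdx2 and Sox2 were thus present in all 6 libraries, while Cdx4 was near the floor in CdxKO. Reads of T in T/BraKO and of Cdx2 in CdxKO come from the targeted genes and do not show a working product.

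Hox genes of groups 1 to 9 were higher in series 1 in most members tested. All 7 trunk genes tested, of groups 6 to 9, were higher in series 1, with a median log2 fold change of 2.83, beside 16.6% of all genes tested. Of groups 4 and 5, 4 of 6 were higher (median 1.85), and of groups 1 to 3, 6 of 7 were higher (median 1.66). Of groups 10 to 13, 1 gene could be tested and was not called. Hoxb9 (GRCm38 chromosome 11, 96271457 to 96276595), a trunk gene, had 4057, 30.1 and 5157 in series 1 and 204, 25.9 and 576 in series 2. The WT and T/BraKO libraries were far apart, and the CdxKO libraries were close to each other. The log2 fold change was 2.33 (SE 0.91, adjusted p 0.0369), and the call was lost without replicate 1 or 2 of WT or any T/BraKO library (adjusted p 0.0632 to 0.265). Hoxb8 had 1415, 7.52 and 1775 against 135, 2.68 and 290.4 (log2 fold change 2.83, adjusted p 3.87e-09). Hoxb6 had 222, 1.25 and 395 against 18.4, 0 and 49.5 (log2 fold change 3.24, adjusted p 5.20e-21). In CdxKO both series had at most 3 counts of Hoxb6, so its fold rested on WT and T/BraKO.

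Hoxc8 (chromosome 15, 102990607 to 102994111) had the highest estimate of the Hox genes, 4.02 (SE 0.48, adjusted p 4.00e-15), from 156, 0 and 204 against 5.80, 0 and 15.6. No CdxKO library of either series held a count of it, which allows up to 3 counts. For Hoxc6, Hoxb5 and Hoxb7 the log2 fold changes were 2.93, 2.97 and 2.09, with CdxKO at most at 10.0 normalised counts. Further towards the anterior end, Hoxb2 had 1180.3, 1047 and 1165 in series 1 and 232, 339 and 275 in series 2, with no overlap and a ratio of similar size in all 3 genotypes (log2 fold change 2.01, adjusted p 8.14e-47). Hoxb1, a first target of retinoic acid in the embryo, had 2106, 3803 and 888 against 994, 1317 and 390.2 (log2 fold change 1.26, adjusted p 7.22e-09). Hoxa3, Hoxb3, Hoxa2 and Hoxb4 were also higher (log2 fold changes 2.08, 2.09, 1.66 and 1.46). Hoxc4 was not called (log2 fold change 1.25, adjusted p 0.341). In series 3 the WT and T/BraKO levels of Hoxb2 to Hoxb9 lay between those of series 1 and series 2. Series 1 against series 3 gave 3 of 7 trunk genes higher, with a median of 1.07. Leaving out both libraries with high Rn45s gave 5 trunk genes, 2 of groups 4 and 5 and 3 of groups 1 to 3. The count for groups 4 and 5 was also 2 without WT replicate 1 or T/BraKO replicate 2. Without all the WT libraries 3 trunk genes were called, and without all the T/BraKO libraries 4.

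**Figure D3:**
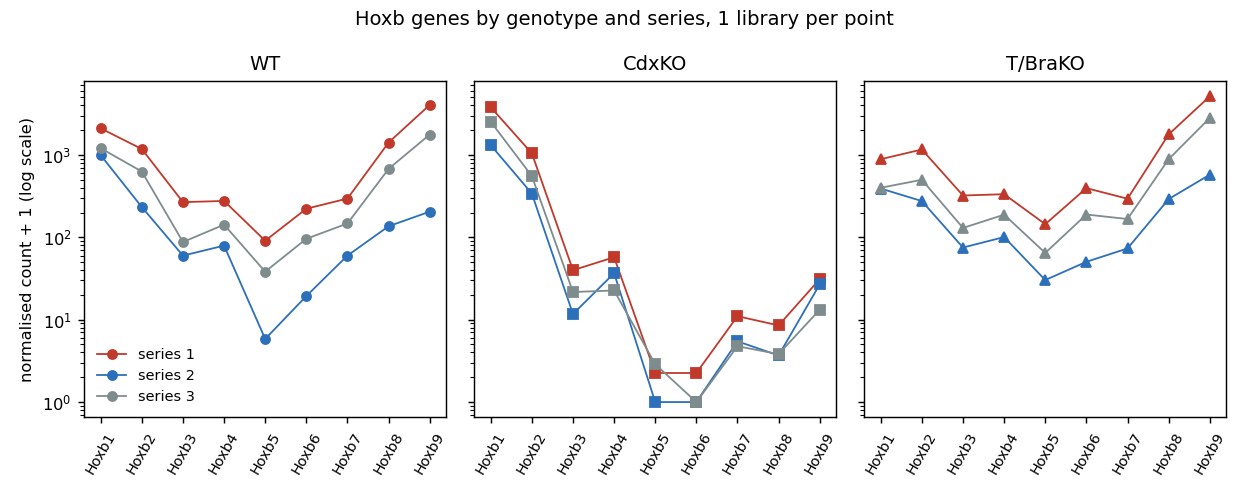
Points give normalised count + 1 on a log axis for Hoxb1 to Hoxb9 in each genotype, 1 library per point, coloured by series. In WT and T/BraKO the series 1 line lies above the series 2 line for every gene (Hoxb9 at 4057 against 204 in WT), while in CdxKO Hoxb5 to Hoxb8 reach at most 10.0 normalised counts.

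Genes of the caudal epiblast and of the mesoderm it produces were in part higher in series 1 than in series 2. Of 19 caudal epiblast genes tested, 10 were higher and 9 were not called (median 0.47), beside 16.6% of all genes called higher. Without CdxKO replicate 1, 2 were called lower, and without CdxKO replicate 3, 1. In series 1 against series 3, 2 of the 19 were higher and 2 lower (median -0.08), beside 9.17% and 8.03% of all genes. The values that follow are for series 1 against series 2. Wnt5a, a ligand that guides axis elongation, had 1328, 770.0 and 1792 in series 1 and 446, 251 and 563 in series 2, with no overlap (log2 fold change 1.62, SE 0.11, adjusted p 9.22e-44). Evx1, a streak homeobox gene, had 739, 688 and 1037 against 269, 263 and 623 (log2 fold change 1.17, adjusted p 6.32e-17). Cyp26a1 (chromosome 19, 37697798 to 37701536), the enzyme that clears retinoic acid from the tail end, had 82.1, 163 and 58.5 against 6.77, 10.7 and 10.99 (log2 fold change 3.36, adjusted p 4.66e-14). Of 11 retinoic acid genes tested, 5 were higher (median 0.41), beside 16.6% of all genes, and 3 without CdxKO replicate 1 or 2. They included the binding protein Crabp2 (0.41) and the synthesis enzyme Aldh1a2 (0.95; adjusted p 0.0981 and 0.0505 without CdxKO replicate 1 and 2). Genes that make and that clear the acid were thus both among those called.

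Of 15 paraxial mesoderm genes tested, 8 were higher and 7 not called (median 0.95), beside 16.6% of all genes called higher. The higher count was 5 without CdxKO replicate 1 or 2. Hes7, an oscillating repressor of the segmentation clock, had 331, 182 and 168 in series 1 and 54.2, 30.4 and 31.1 in series 2. Every series 1 library was above every series 2 library (log2 fold change 2.55, SE 0.22, adjusted p 6.06e-28). Dll3, a Notch ligand of the same clock, had 1370.5, 1426 and 776 against 809, 554 and 435 (log2 fold change 0.98, adjusted p 2.15e-13). Foxc1 and Rspo3 were higher too (log2 fold changes 1.55 and 1.24). Tbx6, which commits progenitors to paraxial mesoderm, had 279, 293 and 17.7 against 158, 67.0 and 20.2. WT and CdxKO were higher in series 1 and T/BraKO was not (log2 fold change 1.05, adjusted p 0.00525), and the call was lost without WT replicate 1 or CdxKO replicate 1 or 2 (adjusted p 0.120, 0.257 and 0.218). Of 13 neural genes tested, 6 were higher (median 0.92), beside 16.6% of all genes. The count was 2 without WT replicate 1 or 2 and 3 without T/BraKO replicate 1 or 2. Pou3f2, a neural POU factor, had 81.0, 100.3 and 51.9 against 17.4, 34.8 and 13.7 (log2 fold change 1.85, adjusted p 3.33e-05). Irx3, which marks intermediate neural progenitors, had a log2 fold change of 1.14. Of 14 genes of the anterior streak and endoderm, 8 were higher and 1 lower (median 0.72), beside 16.6% and 13.8% of all genes. Without CdxKO replicate 1 the higher count was 4. The 1 lower call was lost without WT replicate 1 or CdxKO replicate 2. In series 1 against series 3, 4 of 13 paraxial genes were higher and 1 lower (median 0.51). There 4 of 13 neural genes were higher (median 0.72). Of the 14 anterior streak genes, 1 was higher and 3 lower against series 3 (median -0.37). Between series 1 and series 2, the chemokine receptor Cxcr4 and the BMP antagonist Chrd had log2 fold changes of 1.70 and 0.76. With both high-Rn45s libraries left out, 7 caudal epiblast, 3 paraxial, 2 retinoic acid and 1 neural gene were called higher. None of the anterior streak list was called higher there by DESeq2 (3 at an unadjusted p under 0.05, and 1 called by edgeR).

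Readouts of FGF signalling through ERK were higher in series 1 almost throughout. Of 14 feedback genes tested, 13 were higher (median 0.79), beside 16.6% of all genes. Spry4, an inhibitor of the pathway that the pathway induces, had 1372, 1527 and 1471 in series 1 and 372, 317 and 636 in series 2. The lowest series 1 library was above the highest series 2 library (log2 fold change 1.78, SE 0.22, adjusted p 1.46e-13). Etv4 (chromosome 11, 101769742 to 101785371), an ETS factor downstream of ERK, had 2735, 3026 and 3506 against 1009, 1219 and 1716, also without overlap (log2 fold change 1.26, adjusted p 1.41e-54). Etv5 had a log2 fold change of 0.95, and Dusp6, the ERK phosphatase, of 0.95. Without both high-Rn45s libraries 8 were called, and without all the WT libraries 8. Series 3 was not between the other two here: Spry4 had 2499, 2427 and 2967 and Etv4 3899, 4106 and 5334 in series 3, above every series 1 library. In series 1 against series 3, 5 of the 14 genes were lower in series 1 (median -0.29).

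Immediate early genes, which signals switch on within minutes, included members called in each direction. Of 18 tested, 6 were higher and 3 lower (median -0.08), beside 16.6% and 13.8% of all genes, and the lower count was 1 without WT replicate 1 or T/BraKO replicate 1 and 6 without CdxKO replicate 2. Egr3 had 907, 1359 and 1189 in series 1 and 234, 271 and 538 in series 2 (log2 fold change 1.78, adjusted p 4.40e-07). Fos had 363, 401 and 361 against 191, 163 and 203 (log2 fold change 1.02, adjusted p 9.15e-10). Cyr61, a matrix protein commonly used as a readout of YAP and serum signals, was lower in series 1, at 4618, 9118 and 3969 against 9279, 12289.8 and 13595 (log2 fold change -1.11, adjusted p 0.00507). The Cyr61 call was lost without WT replicate 1 or T/BraKO replicate 1 (adjusted p 0.0574 and 0.0840). Of 16 WNT targets and feedback genes, 7 were higher and 1 lower, beside 16.6% and 13.8% of all genes (median 0.21), and the lower count was 2 without CdxKO replicate 3. Lef1, a WNT-responsive DNA-binding partner of beta-catenin, had 5664, 7167 and 6539 against 4017, 4152 and 4559.5, with no overlap (log2 fold change 0.60, adjusted p 3.12e-14). Lgr5, a WNT co-receptor and target, had a log2 fold change of 1.40. Rnf43, which removes WNT receptors, was the one lower member (-0.62, adjusted p 0.00119). With both high-Rn45s libraries left out, 3 WNT genes were called higher, and of the immediate early list 2 higher and 1 lower.

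Naive pluripotency genes were lower in series 1. Of 14 tested, 9 were lower and 5 not called (median -1.08), beside 13.8% of all genes called lower. Nanog (chromosome 6, 122707489 to 122714633) had 869.8, 1438 and 1406 in series 1 and 2876, 4060.0 and 2893 in series 2. Every series 2 library was above every series 1 library (log2 fold change -1.42, SE 0.17, adjusted p 1.90e-14). The paper also lists Nanog as an early primitive streak marker, in WNT-treated cells with SOX2 switched off. Esrrb, an orphan nuclear receptor of the naive state, had 92.3, 138 and 113 against 359, 381 and 323 (log2 fold change -1.65, adjusted p 1.30e-17). Tfcp2l1, a LIF target, had 540.1, 667 and 772 against 1339, 1546 and 1538 (log2 fold change -1.17, adjusted p 4.29e-32). Dppa5a, Dppa3, Fbxo15 and Zfp42 were lower too (log2 fold changes -1.52, -1.53, -1.13 and -0.92). Series 3 lay between the series for Nanog, at 1951, 2163 and 2414. In series 1 against series 3, 6 of 13 naive genes were lower in series 1, beside 8.03% of all genes. Without both high-Rn45s libraries 8 were called. Without all the T/BraKO libraries, or without T/BraKO replicate 2, 1 naive gene was called higher.

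Of 17 genes of the epiblast and shared pluripotency network, 5 were higher and 2 lower (median 0.11), beside 16.6% and 13.8% of all genes, and leaving out any one of 7 libraries (all except CdxKO replicates 1 and 2) took the lower count to 1. DESeq2 called 0 of them without both high-Rn45s libraries (2 higher and 2 lower at an unadjusted p under 0.05, and 0 called by edgeR). Dnmt3b, a methyltransferase of the epiblast, had a log2 fold change of 0.21 and Zic2 of -0.49. In series 1 against series 3, 12 of the 17 were lower and 0 higher (median -0.53), and Dnmt3b had a log2 fold change of -0.71. Among 4 germline and 2-cell-like genes tested, 3 were lower in series 1 than in series 2 (median -1.07), beside 13.8% of all genes. Sycp3, a meiotic chromosome protein, had 563, 474 and 543 against 1492, 1187 and 1576, with no overlap (log2 fold change -1.43, adjusted p 9.70e-36). A shorter list of genes of naive stem cells shares members with the naive list above, among them Esrrb and Dppa3. Dppa3 is in the germline list as well. The shorter list is therefore not a separate check, and 5 of its 7 genes were lower in series 1. Their summed TPM was 21.3 to 28.3 in series 1, 44.1 to 56.2 in series 2 and 26.5 to 34.7 in series 3. Whether this was spread over all cells or held by a few was not tested.

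Markers of other cells were counted beside the 16.6% of all genes called higher and the 13.8% called lower. Of 7 feeder fibroblast genes, 1 was higher in series 1, the collagen Col3a1 (375, 276 and 314 against 134, 119 and 140.1, log2 fold change 1.29). The other 6 were not called, and the list had a median log2 fold change of -0.16 and a lowest of -1.06. Its lower count was 1 by edgeR or without T/BraKO replicate 1, and 2 without T/BraKO replicate 2. The summed TPM of the list was 55.3 to 58.8 in series 1 and 47.3 to 79.2 in series 2. Of 7 primitive endoderm genes, 2 were higher, but not without WT replicate 1, and the count was 1 without WT replicate 2, CdxKO replicate 1 or 2 or T/BraKO replicate 1. DESeq2 called 0 of the 7 without both high-Rn45s libraries (0 at an unadjusted p under 0.05, and 0 by edgeR). The list had summed TPM of 9.50 to 11.5 against 8.71 to 11.4. One of the 2 was Sox7 (log2 fold change 1.67), whose call was lost without WT replicate 1 or 2 or T/BraKO replicate 1 (adjusted p 0.0645, 0.120 and 0.0789). The 4 trophoblast genes tested were not called, and that list summed to 5.19 to 10.8 against 5.41 to 12.6 TPM.

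**Figure D4:**
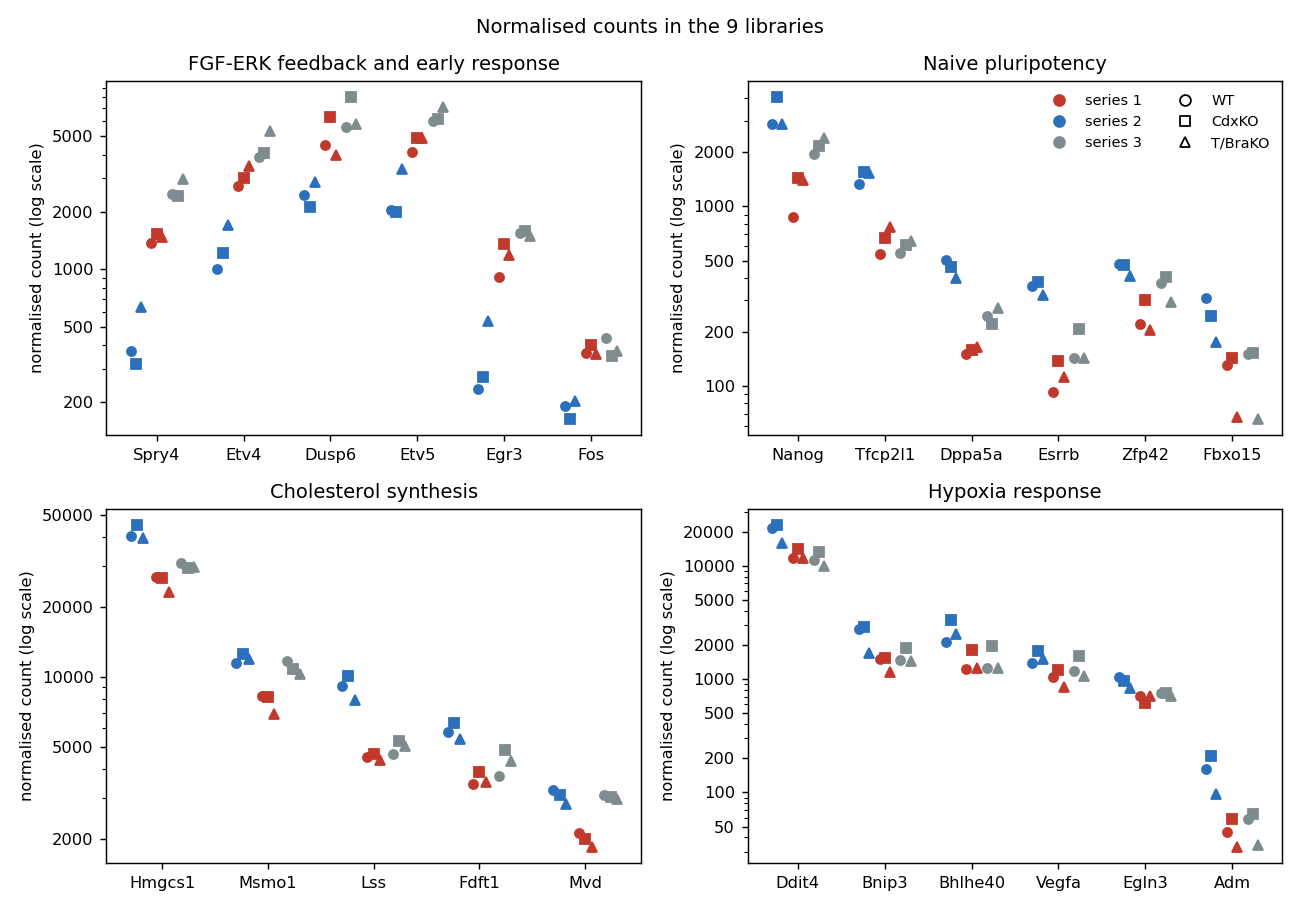
Normalised counts on log axes for 5 or 6 genes of each of 4 groups in all 9 libraries, with series 2, 1 and 3 set side by side for each gene and the genotype given by marker shape. For Spry4, Nanog, Lss and Bnip3 the series 1 and series 2 points do not overlap, and for Spry4 the series 3 points are highest.

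Cholesterol synthesis genes were lower in series 1. Of 23 tested, 19 were lower, 1 higher and 3 not called (median -0.46), beside 13.8% of all genes called lower and 16.6% higher. Lss, lanosterol synthase, had 4519, 4666 and 4403 in series 1 and 9170.5, 10061 and 7918 in series 2. The groups did not overlap (log2 fold change -0.99, SE 0.07, adjusted p 1.17e-45). Hmgcs1, which makes HMG-CoA at the head of the pathway, had 26973, 26679 and 23233 against 40379.6, 45181 and 39491 (log2 fold change -0.70, adjusted p 2.39e-30). Fdft1, Msmo1 and Mvd had log2 fold changes of -0.69, -0.62 and -0.62. The list was lower also against series 3, with 16 of 23 genes called, and 13 were called lower without both high-Rn45s libraries. The 1 higher call was lost without CdxKO replicate 1 or 2 or T/BraKO replicate 2. The fatty acid list, governed by the same SREBP family, gave 4 lower and 1 higher of 12 (median -0.05), beside 13.8% and 16.6% of all genes, and 2 higher without CdxKO replicate 1. Without both high-Rn45s libraries DESeq2 called 0 of the fatty acid list (3 lower and 1 higher at an unadjusted p under 0.05, and 0 called by edgeR). Srebf1 itself was the higher one (0.41).

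Genes of the hypoxia response were lower in series 1 in 13 of 23 (median -0.28), beside 13.8% of all genes. Adm, adrenomedullin, had 45.0, 57.7 and 33.1 in series 1 and 162, 211 and 97.1 in series 2 (log2 fold change -1.77, SE 0.27, adjusted p 1.46e-09). Bnip3, a mitophagy receptor, had 1496, 1531 and 1164 against 2744, 2878 and 1706 (log2 fold change -0.79, adjusted p 4.10e-13). Ddit4, an inhibitor of mTORC1, had 11721, 13999.9 and 11699.9 against 21644, 22947 and 15726 (log2 fold change -0.68, adjusted p 1.58e-19). In all 3, series 2 was above series 1 without overlap, as in 17.9% of all genes tested. Bhlhe40, Vegfa and Egln3 followed with log2 fold changes of -0.89, -0.60 and -0.47. The count was 7 without WT replicate 2, 8 without T/BraKO replicate 1 and 5 without both high-Rn45s libraries. Without WT replicate 2, or without T/BraKO replicate 3, 1 gene of the list was called higher. Of 17 glycolysis genes, of which the hypoxia list shares some, 8 were lower (median -0.16), and 1 without both high-Rn45s libraries. Of all genes, 13.8% were called lower. Without WT replicate 2, or without T/BraKO replicate 3, 1 glycolysis gene was called higher. Hk1 and Pfkp had log2 fold changes of -0.50 and -0.44, and the glucose transporter Slc2a3 of -0.63. Against series 3, 5 hypoxia genes were lower in series 1 and 1 was higher. The oxygen supply of the cultures was not measured.

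Sequence before the start of a gene was looked at for these 2 groups because their factors have well-known short sites. The hypoxia response element was searched as ACGTGC and the sterol regulatory element as TCACNCCAC, on both strands, in the 250 bases before each RefSeq start. The first overlaps the E-box CACGTG where a C comes before it. ACGTGC was in 5 of the 10 hypoxia genes called lower that had a promoter in the table and in 7 of the 9 that were not called, against 5.63% of all 27025 gene symbols. TCACNCCAC was in 1 of the 12 cholesterol genes called lower that had a promoter, Hmgcs1, against 1.22% of all symbols. It was in 0 of the 3 not called. A match is a description of letters only, and the genes were searched after their calls were known. The stretches below, read on the strand of the gene in GRCm38.p6, are the Bnip3 and Ddit4 windows (minus strand, chr7:138909520-138909756 and chr10:59951835-59952020) and the Hmgcs1 window (plus strand, chr13:119690101-119690350), shown for the genes described above that hold a match. Capitals mark the match, which in Bnip3 is an overlapping match on each strand, and bases inside the GENCODE gene were left out.
Bnip3: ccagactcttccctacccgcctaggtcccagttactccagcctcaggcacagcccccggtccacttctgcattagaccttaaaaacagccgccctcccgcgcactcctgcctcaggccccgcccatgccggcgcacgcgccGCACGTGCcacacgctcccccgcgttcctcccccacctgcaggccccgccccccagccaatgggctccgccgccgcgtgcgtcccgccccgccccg
Ddit4: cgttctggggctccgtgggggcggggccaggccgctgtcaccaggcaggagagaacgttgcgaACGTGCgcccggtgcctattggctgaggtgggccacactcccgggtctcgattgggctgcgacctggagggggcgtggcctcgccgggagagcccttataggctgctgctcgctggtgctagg
Hmgcs1: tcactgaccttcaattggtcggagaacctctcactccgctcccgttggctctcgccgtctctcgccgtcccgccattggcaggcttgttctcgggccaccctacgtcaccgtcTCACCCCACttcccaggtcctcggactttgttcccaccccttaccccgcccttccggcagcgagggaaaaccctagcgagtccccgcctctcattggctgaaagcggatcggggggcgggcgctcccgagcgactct
The next counts are also only of genes that had a promoter in the table. In the same search, the ETS letters CCGGAAGT were in none of 9 FGF-ERK genes called higher (3.23% of all symbols). They were also not in the 1 gene not called. The letters TTTATG, close to the site of CDX factors, were in Hoxa7 and Hoxb8 of 7 Hox genes called higher (12.4% of all). They were in 1 of 3 Hox genes not called. The octamer ATTTGCAT was in Zfp42 of 4 naive genes called lower (1.81% of all) and in 0 of 4 not called.

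Stress pathways split. Of 20 amino acid and ATF4 response genes, 10 were lower in series 1 and 1 higher (median -0.29), beside 13.8% and 16.6% of all genes. Asns, asparagine synthetase, had 7497, 10332 and 7602 in series 1 and 10861, 16165 and 14798 in series 2 (log2 fold change -0.72, adjusted p 3.42e-06). The amino acid transporter Slc7a3 had 835, 1073 and 968 against 1194, 1795 and 1764 (log2 fold change -0.71, adjusted p 1.41e-12). The lower count was 3 without CdxKO replicate 1 and 4 without T/BraKO replicate 1 or 2. The 1 higher call was lost without replicate 1 or 2 of WT or CdxKO or T/BraKO replicate 1, and 2 were higher without T/BraKO replicate 2. Of 13 genes of the unfolded protein response, 8 were higher (median 0.22), beside 16.6% of all genes. Hyou1, a chaperone of the endoplasmic reticulum, had 10244, 11400.3 and 10979 against 7960.4, 7981 and 8739 (log2 fold change 0.40, adjusted p 3.28e-11). Hspa5, the main chaperone there, had 19166, 23262 and 20746 against 14929, 16037 and 19599 (log2 fold change 0.33, adjusted p 1.38e-04). These differences were small, and the count was 4 without WT replicate 2, 3 without CdxKO replicate 1 and 4 without CdxKO replicate 2. Without both high-Rn45s libraries 1 ATF4 gene was called lower and 1 gene of the unfolded protein response higher. Against series 3 both lists were lower in series 1, in 16 of 20 and 11 of 13 genes, beside 8.03% of all genes. Hspa5 had 28894, 28169 and 29975 in series 3, above the other 6 libraries.

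The medians of the S phase and mitosis lists moved little. Of 15 S phase genes, 9 were higher (median 0.18), beside 16.6% of all genes, and 5 without WT replicate 1 or 2. Ccne1, cyclin E1, had 2856, 3163 and 3463 in series 1 and 2219, 2399 and 2896 in series 2 (log2 fold change 0.34, adjusted p 5.71e-06). Of 16 mitosis genes, 4 were lower and 1 higher (median -0.10), beside 13.8% and 16.6% of all genes, and 2 were lower without WT replicate 2 or CdxKO replicate 1 or 2. Hmmr, a spindle protein, had a log2 fold change of -0.38 and Bub1, a checkpoint kinase, of -0.26. Of 13 CDK inhibitor, D cyclin and Myc genes, 6 were higher and 1 lower (median 0.38), beside 16.6% and 13.8% of all genes. The lower call was lost without any one WT or T/BraKO library. Among the higher ones, Mycl and Mycn had log2 fold changes of 1.04 and 0.80, and Ccnd2 of 0.75. Without both high-Rn45s libraries DESeq2 called 0 S phase genes (4 higher at an unadjusted p under 0.05, and 0 called by edgeR) and 0 mitosis genes (1 higher and 1 lower at an unadjusted p under 0.05, and 0 called by edgeR). Of 8 genes tied to developmental timing of the axis, 5 were higher (median 0.26), 3 without WT replicate 2 and 1 without both high-Rn45s libraries. The share of all genes called higher was 16.6%. Hmga2, a chromatin protein of early progenitors, had 5579, 6049 and 5380.5 against 2787, 3495 and 3598, with no overlap (log2 fold change 0.79, adjusted p 2.05e-23).

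Apart from the lists, the 12 largest called differences in each direction were taken. Btbd17 (chromosome 11, 114791217 to 114795945) had 197, 263 and 249 in series 1 and 30.0, 23.2 and 30.2 in series 2, with no overlap (log2 fold change 3.09, SE 0.22, adjusted p 4.78e-42). Hapln1, which links hyaluronan to proteoglycans in the matrix, had 123, 62.7 and 88.3 against 14.5, 8.93 and 10.1 (log2 fold change 3.01, adjusted p 2.29e-12). Col13a1, a transmembrane collagen, had 165, 187 and 126 against 30.0, 33.9 and 17.4 (log2 fold change 2.56, adjusted p 1.20e-16). For these the ratio was alike in the 3 genotypes. For others it was not: Raet1b, an NKG2D ligand, had 83.3, 108 and 36.4 against 14.5, 0 and 19.2, and a CdxKO series 2 library at 0 entered its estimate (log2 fold change 4.87, SE 1.85, adjusted p 0.0313). Its call was lost without any one of 6 libraries, which were replicates 2 and 3 of each genotype (adjusted p 0.0584 to 0.300). Olig3, a bHLH factor of the dorsal neural tube, had 34.9, 186 and 24.3 against 1.93, 33.9 and 0 (log2 fold change 3.53, adjusted p 0.00642), and was lost without WT replicate 1 or 2 or replicate 1 of either mutant (adjusted p 0.0574 to 0.0733). The urea cycle gene Arg1 had 114, 62.7 and 1.10 against 24.2, 5.36 and 0.916, with T/BraKO under 3 counts in both series.

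In the other direction, Acta1 (chromosome 8, 123891769 to 123894751), skeletal muscle actin, had 219, 349.9 and 319 in series 1 and 1009.8, 1290.2 and 1498 in series 2, with no overlap (log2 fold change -2.11, SE 0.13, adjusted p 6.67e-59). Gadd45b, a stress-induced gene, had 195, 361 and 183 against 757, 1046 and 1204 (log2 fold change -2.10, adjusted p 8.89e-09). Cldn1, a tight junction protein, had 36.0, 55.2 and 36.4 against 108, 139 and 228 (log2 fold change -1.88, adjusted p 4.77e-08). Smc1b, a cohesin subunit of meiosis, had the most negative estimate among named genes, -2.44, from 13.5, 6.27 and 8.83 against 91.9, 38.4 and 32.1. Wnt10b, a WNT ligand, had 22.5, 27.6 and 24.3 against 87.1, 82.1 and 125 (log2 fold change -1.98, adjusted p 1.03e-05). In series 3 Acta1 had 103, 149 and 117. Gadd45b had 95.1, 151 and 64.6 there, and Wnt10b 8.39, 8.47 and 3.59. For all 3 genes every series 3 library was below every series 1 library. Trim63, Alpk3, Cntd1, Tgm1, Cxcl16, Prss50 and Gpnmb completed the 12, with log2 fold changes from -2.27 to -1.79.

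**Figure D5:**
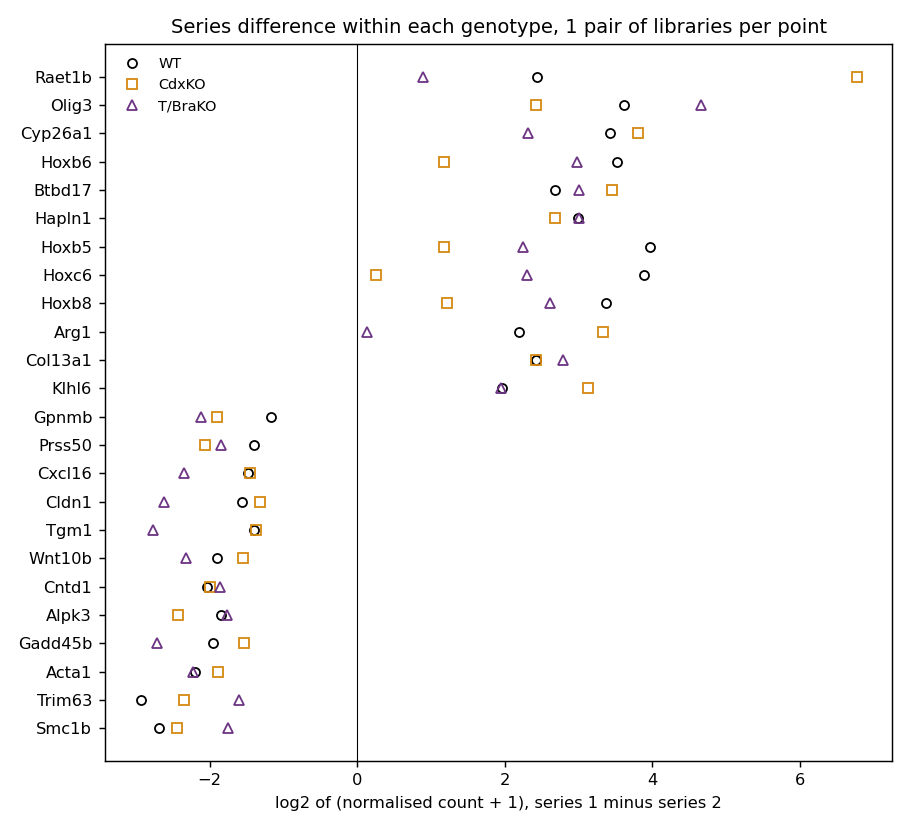
Each marker is the log2 of (normalised count + 1) in series 1 minus that in series 2 within 1 genotype, for the 12 genes with the largest called increase and the 12 with the largest decrease. Btbd17, Hapln1 and Acta1 lie close together across genotypes, while Raet1b and the Hox genes spread widely.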

How the data were processed

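The authors sequenced poly(A) RNA as single-end, strand-specific reads and quantified it with STAR and RSEM against RefSeq genes on mm10 (cutadapt 1.16, STAR 2.5.2a and RSEM 1.3.0 per the submitters' processing notes). The authors deposited expected counts, RSEM's estimates that need not be whole, and TPM, scaled for transcript length within each library. TPM was used for summed marker levels only.

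Expected counts were rounded and fitted with DESeq2 1.42.0 in R 4.3.3, as the study's methods use DESeq2, with genotype and series as terms over all 9 libraries. The contrast was series 1 minus series 2, with default size factors and unshrunken log2 fold changes. Genes were called at a Benjamini-Hochberg adjusted p of at most 0.05. Alternatives covered edgeR 4.0.16, TMM factors, a low-count filter (10 counts or more in 3 or more libraries), stricter thresholds and left-out libraries. The pipeline was tested on simulated counts. Per-library values are normalised counts. Library totals ran from 25124337 to 34705355, so a floor of 3 counts was 0.0864 to 0.119 CPM, and floors cover counting error only.

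The text names T and the Cdx genes, the markers T, Nkx1-2, Fgf8, Wnt3a, Wnt8a, Sox2, Sox3 and Pou5f1, and every Hox gene with a mean of at least 50 normalised counts in either series. It also names the 12 largest called differences in each direction (mean of at least 50 in the higher series, same direction in 3 genotypes) and up to 6 called members per list. Some genes the rule covers are not reported here. Rn45s, and the genes named for holding a promoter motif, were chosen after their values were seen. The compared libraries and the gene lists were chosen with earlier results of these data known. Coordinates are from GENCODE M21 on GRCm38 (mm10) and promoter sequences from RefSeq.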

Additional observations from a re-analysis of the deposited data

Results flagged for a closer look

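Hoxc4, a Hox gene of group 4, went in opposite directions in the genotypes between series 1 and series 2. The log2 ratio of normalised counts, each with 1 added, was -2.67 in CdxKO and at most 2.51 in the other genotypes. The CdxKO ratio rested on a series 1 library at 0 and a series 2 library at 5.36 normalised counts. DESeq2 did not call the gene (log2 fold change 1.25, adjusted p 0.341), and whether its series difference varied between genotypes was not tested.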

How the results depend on the processing

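No paired analysis was possible because the replicate number is itself what is compared. The genotype took the place of the block, and without a genotype term 1608 genes were higher and 1464 lower. Without that term the called genes numbered 1 of the trunk Hox list, 0 of Hox groups 4 and 5 (0 also by edgeR, and 2 higher by DESeq2 with p unadjusted and up to 0.05), 3 of Hox groups 1 to 3, 5 of the caudal epiblast list, 5 of the paraxial list and 7 lower of the hypoxia list. The 2363 higher and 1956 lower genes became 1539 and 1420 in a fit to the 6 libraries compared. They became 958 and 765 without the WT libraries, 1111 and 979 without the CdxKO libraries and 1335 and 1072 without the T/BraKO libraries. Without the CdxKO libraries 3 paraxial genes and 1 gene of the unfolded protein response were higher, and without the WT libraries 3 of the latter, with 7 hypoxia genes lower. With 1 library left out, the counts ranged from 1506 to 2172 higher and from 1243 to 1806 lower. The lowest of both came without CdxKO replicate 1, and without WT replicate 2 the lower count was 1248. An adjusted p of at most 0.01 gave 1570 and 1283, and an absolute log2 fold change above 1 gave 245 and 213. Leaving out both libraries with high Rn45s, an alternative chosen after seeing the data, gave 261 and 231, with fewer libraries in the fit. TMM factors gave 2035 and 2191, the filter on low counts 2358 and 1986, edgeR 2852 and 2597, and leaving out Rn45s 2364 and 1956. Of 213 genes named by rule, 205 were called and none of these changed direction under any alternative run. Of the 205, 54 were called under every alternative for which a gene-level value was made. The cause of the changes with a genotype left out was not tested. Correlations across 14045 genes of the log2 fold change with GC content (Spearman's rho 0.075) and with transcript length (0.010) were small. With 1 library per genotype and series, a difference particular to 1 genotype could not be tested, and genes at the floor of 3 counts (0.0864 to 0.119 CPM) in CdxKO carry no information on that genotype.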

Other observations

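Genes of the epithelial to mesenchymal balance were compared between series 1 and series 2. Of 13 tested, 5 were higher and 2 lower in series 1 (median 0.14), beside 16.6% and 13.8% of all genes, and the lower count was 0 without WT replicate 1 or T/BraKO replicate 1 and 1 without WT replicate 2 or T/BraKO replicate 2. Without both libraries with high Rn45s, 1 was higher and 1 lower. Cdh2, N-cadherin, had 7999, 7937 and 5991 normalised counts in WT, CdxKO and T/BraKO of series 1 and 4208, 3769 and 3538 in series 2, with no overlap (log2 fold change 0.92, adjusted p 4.38e-44). Twist1, a mesenchymal bHLH factor, had 222, 258 and 191 against 106, 121 and 96.2 (log2 fold change 1.05, adjusted p 9.32e-07). The repressors Zeb1 and Zeb2 had log2 fold changes of 0.48 and 0.40. Against series 3, 7 of the 13 were higher in series 1 and 1 was lower, beside 9.17% and 8.03% of all genes.

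Of 22 imprinted genes tested, 8 were higher and 4 lower in series 1 (median 0.10), beside 16.6% and 13.8% of all genes. Without both libraries with high Rn45s, DESeq2 called 1 higher and 0 lower (1 lower at an unadjusted p under 0.05, and 0 called lower by edgeR). Without WT replicate 1 the counts were 4 and 2, and without T/BraKO replicate 1 the higher count was 5. The lower count was 1 without WT replicate 2, and 2 without WT replicate 3, CdxKO replicate 2 or 3 or T/BraKO replicate 3. Mest, expressed from the paternal allele, had 3165, 4471 and 4429.5 against 1487, 2251 and 2224, with no overlap (log2 fold change 1.02, adjusted p 3.84e-61). Meg3, a maternally expressed RNA, had 6716, 7211 and 6102 against 8398, 10287 and 8641 (log2 fold change -0.45, adjusted p 9.87e-09).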
